A study of Homo sapiens with 9 samples.

Results

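The enzymes of glycolysis, gluconeogenesis and glycogen metabolism were followed in HepG2 cells, a human liver cancer line, after CRISPR/Cas9 targeting of KEAP1. The set comprised 36 genes in 8 branches of the pathway, matched to the deposited counts through their Entrez gene numbers. Of these, 32 had a row among the 11746 features that carry an Entrez number, and 31 had enough reads to be among the 11064 features tested. PFKM, LDHB, PDK4 and GYS2 were not analysed here. FBP1 had too few reads for the test and is given by its counts.

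RNA came from 9 libraries in 3 groups of 3, all of HepG2 cells kept in EMEM on 6-well plates and harvested 48 h after seeding. The sgCtrl cells carried Cas9 and the guide sgAAVS168 against AAVS1, a locus used as a neutral target. The sgKeap1-1 and sgKeap1-2 cells carried Cas9 with different guides against KEAP1. Cells of every group had been transduced with the lentiCRISPRv2 vector and selected with puromycin, and no single-cell cloning is described, so each line is 1 selected population per guide. The labels do not say whether the 3 libraries of a group came from separate cultures, so p-values measure the spread between these libraries, which may be technical.

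Glycolysis turns glucose into pyruvate. Hexokinase traps glucose in the cell, phosphofructokinase commits it to breakdown, and pyruvate kinase closes the route. The liver can also run the route backwards, with PCK1 and glucose-6-phosphatase carrying steps that glycolysis cannot reverse, and it stores glucose as glycogen. KEAP1 holds the transcription factor NRF2 for degradation, and NRF2 binds antioxidant response elements in DNA.

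Levels are given as CPM, read counts divided by the TMM-scaled library size, in the order of replicates 1, 2 and 3. NQO1, an NRF2 target used as a check of the labels, was at 536, 521 and 505 CPM in sgCtrl. It was at 1442, 1360.3 and 1265 CPM in sgKeap1-1 and at 1899.7, 1769 and 1545 CPM in sgKeap1-2, so both KEAP1 groups lay wholly above sgCtrl. KEAP1 itself was at 63.3, 89.2 and 85.3 CPM in sgCtrl, at 64.1, 62.5 and 53.4 CPM in sgKeap1-1 and at 81.9, 85.6 and 73.9 CPM in sgKeap1-2. Both KEAP1 groups overlapped sgCtrl, sgKeap1-2 lay wholly above sgKeap1-1, and KEAP1 passed the test in none of the 3 comparisons (unadjusted p = 0.0148 between the guides). The reads come from the 3′ end of transcripts, outside the part a guide cuts, so KEAP1 counts do not check the edit.

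Library totals ran from 3011644 to 4725840 reads, with a median of 3758185. All 13 hepatocyte markers listed were tested. With sgKeap1-1, 7 were lower and 1 was higher, and with sgKeap1-2, 8 were lower and 1 was higher. Over all features, 1.40% were lower and 2.80% higher with sgKeap1-1, and 4.85% and 5.96% with sgKeap1-2. The summed level of the hepatocyte markers ran from 43661 to 55973 CPM in sgCtrl, from 29790.2 to 39004 CPM in sgKeap1-1 and from 26235 to 30378 CPM in sgKeap1-2. Of 14 fibroblast, endothelial and blood markers, 12 had no row, and COL1A1 and CD14 had at most 15 and 31 reads in a library. In bulk RNA, fewer cells of a kind and less RNA per cell cannot be told apart.

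The promoters of the members were searched for 3 short motifs on both strands, in RefSeq windows (GRCh38.p14) that run from 250 bases before to 50 bases after a transcription start. Windows were found for 33 of the 36 members, 62 windows in all. The core of the antioxidant response element, TGACNNNGC, was present in 6 of the 62 windows (9.7%), against 14.8% of the windows of all tested genes. Windows with a match belonged to HK1, PKM, PFKL, GYS1, ALDOC and GAPDH, and none was found in a PFKP window. The core of the hypoxia response element, ACGTG, was in 26 windows (41.9%), against 25.5%. These windows belonged to 20 of the 33 members. Windows of a gene can overlap, so the same bases can count more than once, as for G6PC3 and PFKM. The CLEAR-type E-box TCACGTG, which contains ACGTG, was in 2 windows (3.2%), against 5.4%, and the GAPDH match overlaps its TGACNNNGC match. A match describes letters in a window and is not a site.

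The matches of HK1 and PKM are shown because both genes rose with both guides, and that of PFKP because it rose with them. HK1 has 7 windows and PFKP has 4, each with the match shown in 1 of them, and PKM has 1 window. PFKL, GYS1, ALDOC and GAPDH, which also match TGACNNNGC, were called with neither guide. Each is read 5′ to 3′ on the gene's strand with the motif in capitals. The first 2 hold TGACNNNGC, at chr10:69334370-69334398 and chr15:72231304-72231332, and the third holds ACGTG at chr10:3069040-3069064.
HK1: agcttgcaggTGACTCAGCttgaatatgg
PKM: ctcctgaaggTGACTGCGCccgcggggac
PFKP: acgagcgcctACGTGatgcccggcc

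The 250 bases before the start of G6PC1, on the plus strand at chr17:42900549-42900798, are shown for its fold change. On all 9 libraries G6PC1 had the lowest log2 fold change of the set with both guides. With sgKeap1-1 that rank changed without sgCtrl replicate 2, where PCK1 was at -1.14 and G6PC1 at -1.05. It changed too without all the libraries numbered 2, where PCK1 was at -2.27 and G6PC1 at -2.03. The capitals mark the only match of G6PC1 to the 3 motifs, an ACGTG.
G6PC1: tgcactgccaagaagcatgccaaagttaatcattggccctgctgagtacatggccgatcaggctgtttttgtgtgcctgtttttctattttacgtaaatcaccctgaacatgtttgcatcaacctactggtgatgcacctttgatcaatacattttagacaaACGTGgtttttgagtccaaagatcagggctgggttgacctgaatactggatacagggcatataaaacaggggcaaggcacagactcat

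On GRCh37, the 8 members called with at least 1 guide lie at chr10:71029740-71161640 (HK1), chr10:3108525-3179910 (PFKP), chr19:34850385-34893318 (GPI), chr16:30075485-30081778 (ALDOA), chr15:72491370-72524160 (PKM), chr20:56136136-56143177 (PCK1), chr1:64059082-64125916 (PGM1) and chr14:51324609-51411201 (PYGL). PKM and PYGL are on the minus strand and the others on the plus strand. The counts are totals per gene, from a kit that reads transcripts near their 3′ ends.

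The first question was which steps of the pathway differed from sgCtrl with each KEAP1 guide. With sgKeap1-1, 3 of the 31 members tested rose (PKM, PFKP and HK1) and 0 fell, at an adjusted p under 0.05 in edgeR's quasi-likelihood test over all features. Over all features, 4.20% were called in that comparison, 2.80% higher and 1.40% lower, and the 3 members are 9.68% of the 31. Unadjusted p was under 0.05 for 10 members (32.3%), against 15.0% of all features. With sgKeap1-2, 5 members rose (PKM, PFKP, HK1, GPI and ALDOA) and 3 fell (PGM1, PYGL and PCK1), which is 16.1% and 9.68% of the members, where 10.8% of all features were called, 5.96% higher and 4.85% lower. Unadjusted p was under 0.05 for 11 members (35.5%), against 23.3% of all features. All 3 genes called with sgKeap1-1 were called with sgKeap1-2, and both comparisons use the same sgCtrl libraries.

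Same-numbered sgCtrl and sgKeap1-1 libraries deviated together from their group means (correlations 0.32, 0.52 and 0.28), so that comparison was also fitted with the replicate number as a block. Libraries of different number ran from -0.47 to 0.029, except sgCtrl replicate 3 with sgKeap1-1 replicate 1, at 0.29. That is above the 0.28 of the libraries numbered 3, so numbers 1 and 3 are not clearly set apart as pairs. With the block, 977 features passed with sgKeap1-1, and among the members 6 were higher (PKM, PFKP, HK1, GPI, ALDOA and HK2) and 3 lower (PCK1, G6PC1 and PGM1). The sgCtrl and sgKeap1-2 libraries did not all pair in this way, with a correlation of -0.031 for those numbered 1.

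The filter on low counts asks for 2.66 CPM in 3 libraries. HK1 reached it in 0 of 3 sgCtrl libraries and PFKP in 1, so both were tested only through the KEAP1 groups, where they are high. PCK1 and G6PC1 reached it in all 3 sgCtrl libraries, in 3 and 2 of the sgKeap1-1 libraries and in 1 and 0 of the sgKeap1-2 libraries. G6PC1 was thus kept only through sgCtrl, while PCK1 would have been kept on sgCtrl or sgKeap1-1 alone. The tests of HK1, PFKP and G6PC1, and that of PCK1 with sgKeap1-2, describe the libraries and add no support to the counts above. Without HK1 and PFKP the calls with sgKeap1-1 come down to PKM. Without HK1, PFKP and PCK1, those with sgKeap1-2 come down to PKM, GPI and ALDOA higher and PGM1 and PYGL lower.

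By libraries alone, 7 members lay wholly above and 3 wholly below sgCtrl with sgKeap1-1, against 11.5% and 10.3% of all features. With sgKeap1-2 the counts were 6 above and 5 below, against 14.3% and 13.7%. HK1 and PFKP are among those above with both guides, and PCK1 and G6PC1 among those below with sgKeap1-2. These genes passed the filter through the groups where they are high, so they add no support to these counts either. The median log2 fold change of the members was 0.22 with sgKeap1-1 and 0.14 with sgKeap1-2, and the median of all features was -0.00062 and -0.014. Leaving out libraries moved the members' median from 0.0013 (without sgKeap1-1 replicate 2) to 0.42 (without sgCtrl replicate 2) with sgKeap1-1, and from 0.0067 (without the 3 libraries numbered 3) to 0.36 (without those numbered 2) with sgKeap1-2.

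**Figure D1:**
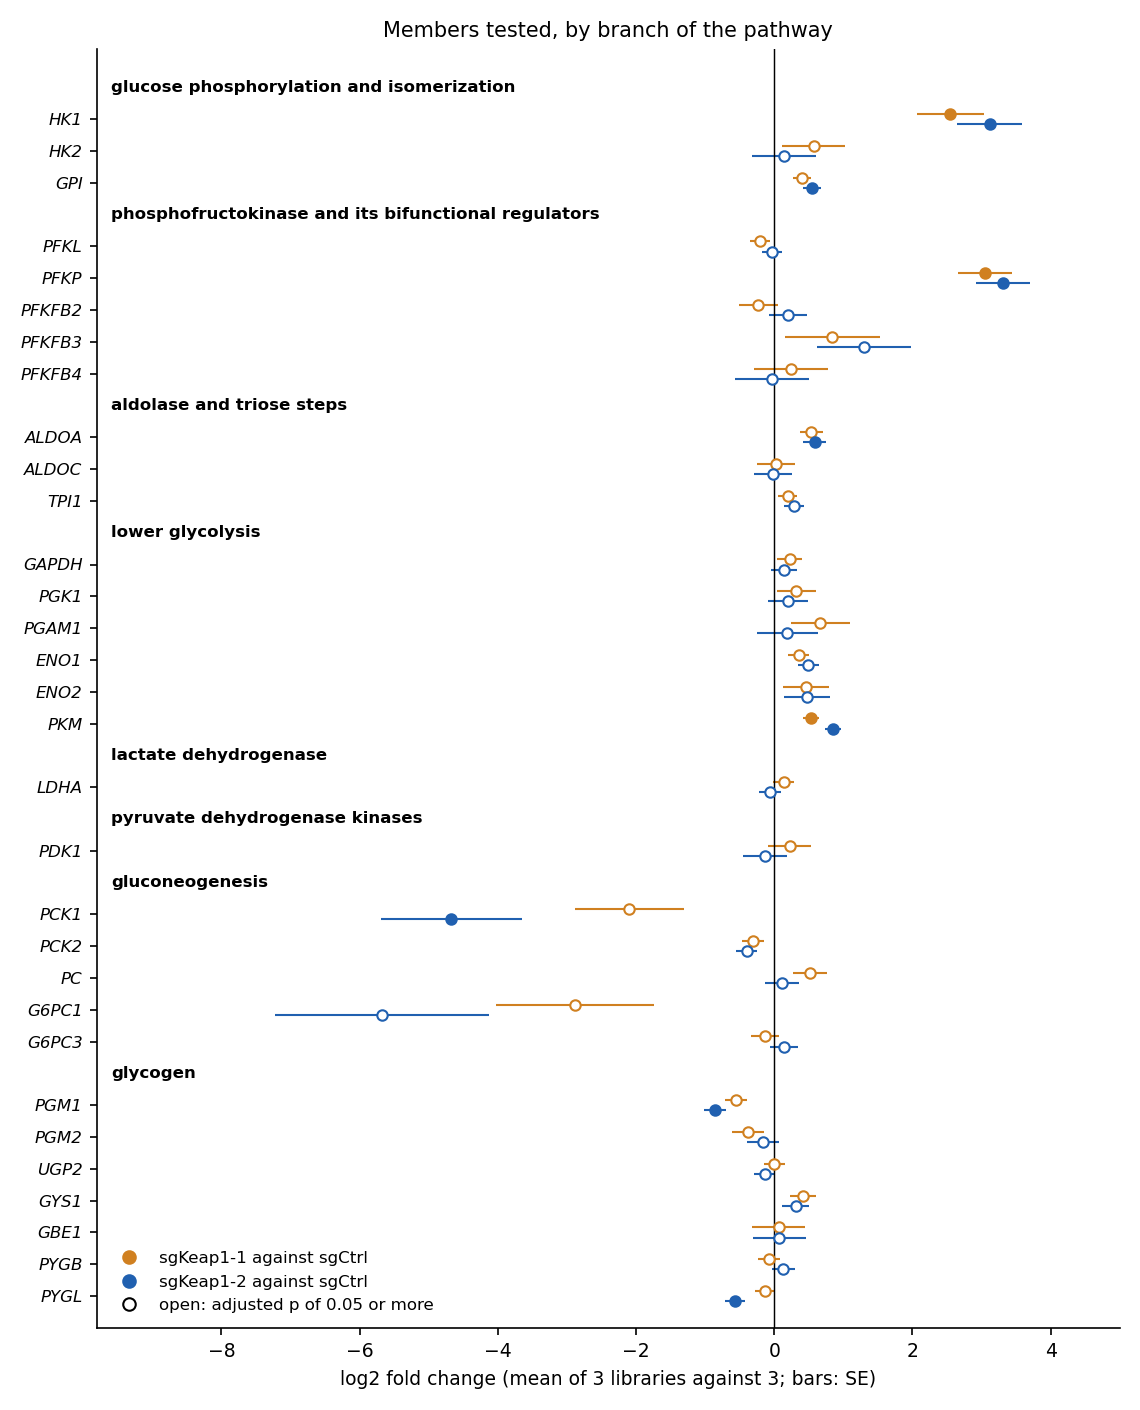
Log2 fold change of the 31 members tested against sgCtrl, grouped by branch, for sgKeap1-1 (orange) and sgKeap1-2 (blue), with SE bars; filled points have an adjusted p under 0.05. HK1 and PFKP sit furthest to the right with both guides, between 2.55 and 3.31, and PCK1 and G6PC1 furthest to the left.

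Hexokinases and glucose-6-phosphate isomerase open the pathway. HK1, the hexokinase of most tissues outside the liver, was at 0.265, 1.36 and 1.12 CPM in sgCtrl, from 1, 4 and 4 reads. It was at 4.38, 6.97 and 4.47 CPM in sgKeap1-1 and at 8.62, 8.54 and 6.54 CPM in sgKeap1-2. Every KEAP1-targeted library exceeded every sgCtrl library. HK1 rose by a log2 fold change of 2.55 ± 0.49 (SE, n = 3 per group; adjusted p = 0.0064) with sgKeap1-1 and of 3.12 ± 0.47 (adjusted p = 0.000563) with sgKeap1-2. The sgCtrl level rests on 9 reads in all, so the size of the fold is imprecise, and HK1 entered the test only through the KEAP1 libraries. Without the 3 libraries numbered 1, the adjusted p with sgKeap1-1 was 0.155.

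HK2, the hexokinase common in tumours, ranged from 36.0 to 93.6 CPM in sgCtrl, from 55.5 to 149 CPM in sgKeap1-1 and from 53.3 to 102 CPM in sgKeap1-2. The groups overlapped and it passed with neither guide, while with the replicate block its log2 fold change with sgKeap1-1 was 0.54 (adjusted p = 0.016). GPI, which interconverts glucose 6-phosphate and fructose 6-phosphate, was at 253, 254 and 232 CPM in sgCtrl. It was at 308, 341 and 327 CPM in sgKeap1-1 and at 319, 337 and 425 CPM in sgKeap1-2, all above sgCtrl. GPI rose with sgKeap1-2 (log2 fold change 0.55 ± 0.13, adjusted p = 0.0125) and had a value of 0.40 ± 0.13 (adjusted p = 0.109, and 0.0324 with the replicate block) with sgKeap1-1. Without sgCtrl replicate 3 the adjusted p with sgKeap1-2 was 0.0682, and without sgKeap1-2 replicate 3 that with sgKeap1-1 was 0.0265.

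PFKP, the platelet-type phosphofructokinase, gave the largest log2 fold change among the members that rose. It was at 0.53, 1.7 and 3.07 CPM in sgCtrl, from 2, 5 and 11 reads, at 12.4, 15.2 and 16.6 CPM in sgKeap1-1 and at 14.2, 20.5 and 18.2 CPM in sgKeap1-2. The highest sgCtrl library was below the lowest KEAP1-targeted library. PFKP rose by 3.05 ± 0.39 (adjusted p = 0.000254) with sgKeap1-1 and by 3.31 ± 0.39 (adjusted p = 5.73e-05) with sgKeap1-2 on the log2 scale, and both calls held in all the fits that left out libraries. The size of the fold rests on few sgCtrl reads, and PFKP too entered the test only through the KEAP1 libraries. Leaving out libraries moved the log2 fold change from 2.58 to 3.77 with sgKeap1-1 and from 2.84 to 4.03 with sgKeap1-2, the highest values being those without sgCtrl replicate 3.

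PFKL, the liver-type phosphofructokinase, was at 94.6, 89.5 and 84.5 CPM in sgCtrl. It was at 76.2, 72.3 and 84.7 CPM in sgKeap1-1 and at 73.6, 85.6 and 102 CPM in sgKeap1-2, overlapping sgCtrl with both guides. The bifunctional enzymes PFKFB2, PFKFB3 and PFKFB4 set the level of fructose 2,6-bisphosphate, which activates phosphofructokinase. PFKFB3 was at 4.77, 30.6 and 10.6 CPM in sgCtrl, at 10.5, 42.5 and 26.6 CPM in sgKeap1-1 and at 26.2, 46.1 and 37.1 CPM in sgKeap1-2. Same-numbered libraries differed from sgCtrl by 2.34, 0.58 and 1.76 on the log2 scale with sgKeap1-2, but the groups overlapped and the adjusted p was 0.306. With the replicate block the log2 fold change was 1.46 (adjusted p = 0.00185), though these libraries did not all pair by number. Without the block and without sgCtrl replicate 2, the highest control for PFKFB3, the adjusted p was 0.0494 at a log2 fold change of 2.25. The value with sgKeap1-1 was then 1.80 (adjusted p = 0.178). PFKFB2 and PFKFB4 ranged from 7.1 to 28.6 CPM over the 9 libraries, with overlapping groups.

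ALDOA, the main aldolase outside liver, kidney and intestine, was at 594, 933 and 626 CPM in sgCtrl. It was at 893, 1162 and 1064 CPM in sgKeap1-1 and at 962, 1140.2 and 1119.6 CPM in sgKeap1-2. The sgKeap1-2 libraries all exceeded sgCtrl, while the lowest sgKeap1-1 library was below sgCtrl replicate 2. The log2 fold change was 0.54 ± 0.17 (adjusted p = 0.0992, and 0.00234 with the replicate block) with sgKeap1-1 and 0.58 ± 0.17 (adjusted p = 0.0381) with sgKeap1-2.

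The ALDOA call rested on most of the libraries. With sgKeap1-2 it was lost without sgCtrl replicate 1 (adjusted p = 0.181) or 3 (0.164), sgKeap1-1 replicate 3 (0.0564), or sgKeap1-2 replicate 1 (0.0514), 2 (0.101) or 3 (0.0817). It was also lost without the libraries numbered 1 (0.269) or 3 (0.279) and when sgCtrl and sgKeap1-2 were fitted alone (0.0524). With sgKeap1-1 it was gained without sgCtrl replicate 2 (0.00924). ALDOC, a second aldolase, was at 23.1, 39.8 and 22.6 CPM in sgCtrl, at 27.3, 30.9 and 27.9 CPM in sgKeap1-1 and at 18.2, 26.1 and 39.2 CPM in sgKeap1-2, with overlapping groups. TPI1, which interconverts the triose phosphates, had log2 fold changes of 0.20 ± 0.14 with sgKeap1-1 and 0.29 ± 0.14 with sgKeap1-2 (adjusted p = 0.592 and 0.239).

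**Figure D2:**
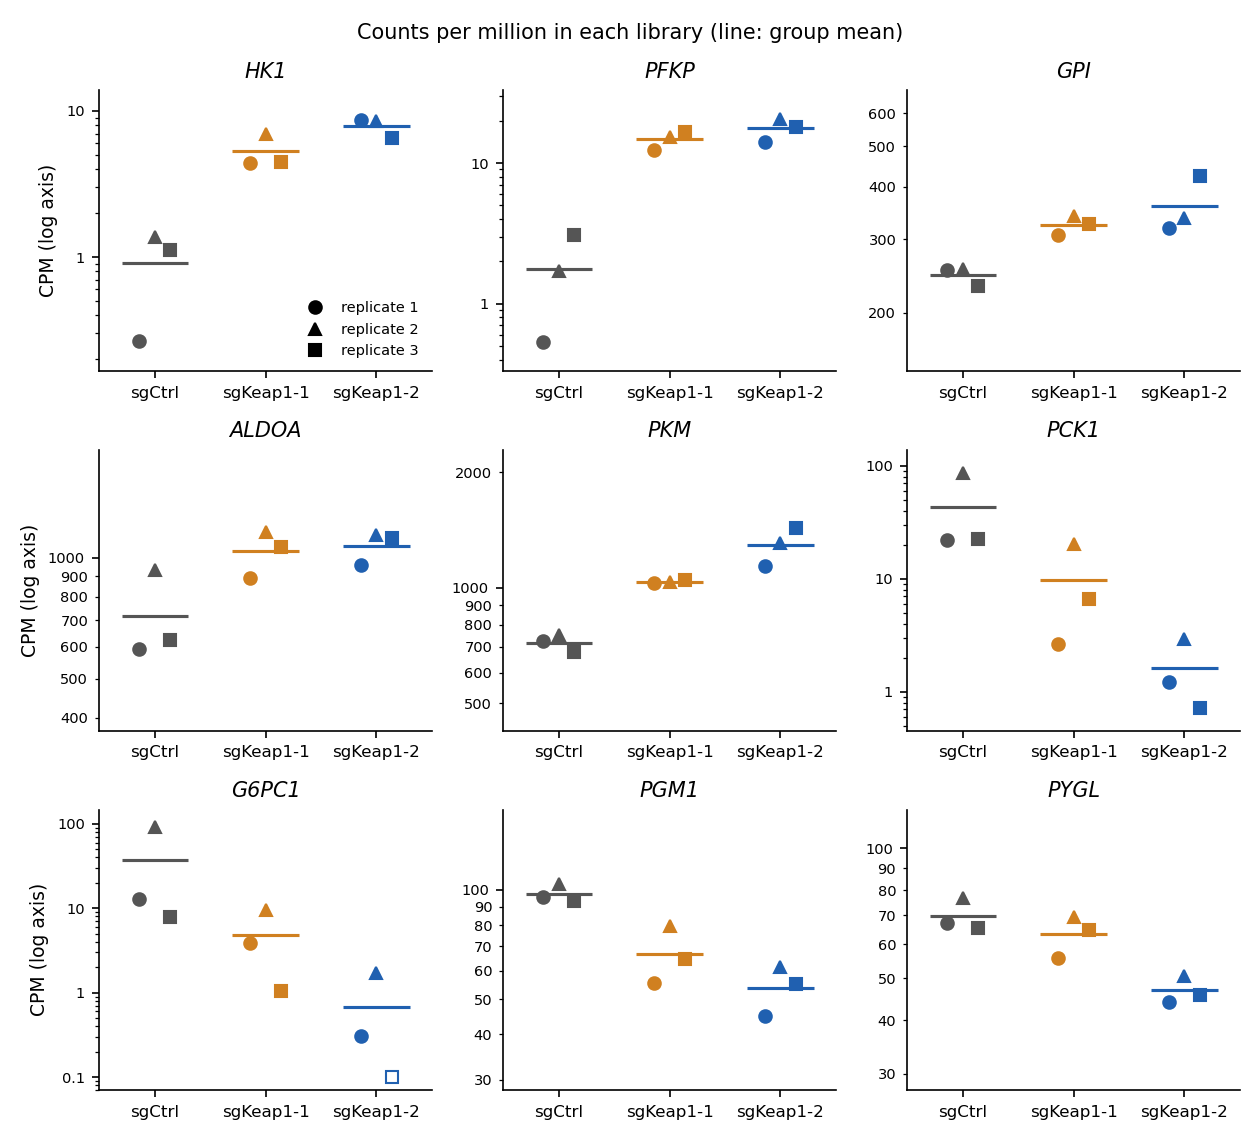
CPM on a log axis in each of the 9 libraries for the 8 members called with at least 1 guide and for G6PC1; symbols mark the replicate number, lines the group means, and the open square a library with 0 reads. HK1, PFKP, GPI and PKM lie above sgCtrl in all 6 KEAP1-targeted libraries, and PCK1 and PGM1 below it.

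The lower part of glycolysis runs from glyceraldehyde 3-phosphate to pyruvate. PKM, pyruvate kinase of the muscle type, was at 726, 750.3 and 678 CPM in sgCtrl, at 1027, 1032 and 1044 CPM in sgKeap1-1 and at 1140.2, 1307 and 1428 CPM in sgKeap1-2. The 3 groups did not overlap. PKM rose with sgKeap1-1 (log2 fold change 0.53 ± 0.12, adjusted p = 0.0156) and with sgKeap1-2 (0.85 ± 0.12, adjusted p = 0.00022). With sgKeap1-1 the call was lost without sgCtrl replicate 1 (adjusted p = 0.0777) or 3 (0.102), or sgKeap1-1 replicate 1 (0.0662) or 3 (0.0537), and without all the libraries numbered 1 (0.329) or 3 (0.0824).

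ENO1, the enolase of most tissues, is named after its values were seen, since it lay next to the threshold. It was at 1467, 1841 and 1539.8 CPM in sgCtrl, at 1837, 2409 and 1939 CPM in sgKeap1-1 and at 1906, 2249.9 and 2668 CPM in sgKeap1-2. The sgKeap1-2 libraries all exceeded sgCtrl, at a log2 fold change of 0.49 ± 0.15 (adjusted p = 0.0512), and with sgKeap1-1 the value was 0.35 ± 0.15 (adjusted p = 0.285). With sgKeap1-2 it passed without sgCtrl replicate 2 (adjusted p = 0.043), sgKeap1-1 replicate 2 (0.03) or sgKeap1-2 replicate 1 (0.0333). On all 9 libraries it passed with DESeq2's size factors in edgeR (0.0498), with no scaling beyond library size (0.0274) and in DESeq2's Wald test (0.0299). It also passed with the replicate block in edgeR (0.00386), though same-numbered sgCtrl and sgKeap1-2 libraries did not all pair.

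GAPDH, which makes NADH in this segment, was at 2320.2, 3297 and 2253 CPM in sgCtrl. It was at 2579, 3290.3 and 3303 CPM in sgKeap1-1 and at 2375, 2628 and 3676 CPM in sgKeap1-2. The groups overlapped, and the 95% interval of the log2 fold change ran from -0.18 to 0.62 with sgKeap1-1 and from -0.26 to 0.54 with sgKeap1-2. PGK1 had values of 0.32 ± 0.29 with sgKeap1-1 and 0.20 ± 0.29 with sgKeap1-2 (adjusted p = 0.713 and 0.752).

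PGAM1, the mutase before enolase, was at 5.3, 15.7 and 9.2 CPM in sgCtrl, at 7.55, 23.3 and 16 CPM in sgKeap1-1 and at 13.5, 12.4 and 8 CPM in sgKeap1-2. ENO2, the neuronal enolase, ranged from 34.2 to 84.5 CPM. Both had overlapping groups with both guides, so PKM was the 1 member of the 6 in this branch that passed the test. RefSeq names 65 pseudogenes for GAPDH, 13 for PGAM1, 6 for LDHA, 5 for PKM, 4 each for TPI1 and ENO1, and 2 for ALDOA, and reads shared with such copies could not be separated.

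At the fate of pyruvate, LDHA, which makes lactate, was at 697, 868 and 729 CPM in sgCtrl. It was at 764, 1049 and 706 CPM in sgKeap1-1 and at 709.9, 826 and 666 CPM in sgKeap1-2. The groups overlapped, and the 95% interval of the log2 fold change was -0.20 to 0.47 with sgKeap1-1 and -0.39 to 0.27 with sgKeap1-2. PDK1, a kinase that holds pyruvate dehydrogenase inactive, was at 36.8, 70.1 and 43.8 CPM in sgCtrl, at 37.3, 78 and 59.2 CPM in sgKeap1-1 and at 31.1, 55.9 and 49.2 CPM in sgKeap1-2. Its groups overlapped too.

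Gluconeogenesis held the lowest log2 fold changes of the set. PCK1, the cytosolic phosphoenolpyruvate carboxykinase, was at 22, 86.1 and 22.3 CPM in sgCtrl. It was at 2.68, 20.3 and 6.57 CPM in sgKeap1-1 and at 1.23, 2.93 and 0.727 CPM in sgKeap1-2, from 4, 12 and 3 reads. Both KEAP1 groups lay below sgCtrl in every library, with log2 ratios of same-numbered libraries of -2.82, -2.06 and -1.69 (sgKeap1-1) and -3.70, -4.66 and -4.22 (sgKeap1-2). PCK1 fell with sgKeap1-2 (log2 fold change -4.67 ± 1.02, adjusted p = 0.0255). With sgKeap1-1 its value was -2.10 ± 0.79 (adjusted p = 0.265), and it passed with the replicate block (-2.18, adjusted p = 2.06e-06). The sgKeap1-2 call was lost without any of its own libraries, replicate 1 (adjusted p = 0.098), 2 (0.0855) or 3 (0.119), and without all the libraries numbered 1 (0.0627) or 3 (0.2). The size moved as well. Without sgCtrl replicate 2, sgKeap1-1 gave a log2 fold change of -1.14 and sgKeap1-2 gave -3.72, without sgKeap1-1 replicate 2 that with sgKeap1-1 was -3.22, and without sgKeap1-2 replicate 2 that with sgKeap1-2 was -5.44.

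G6PC1, the catalytic subunit of glucose-6-phosphatase in liver, was at 12.7, 92.6 and 7.81 CPM in sgCtrl. It was at 3.9, 9.59 and 1.05 CPM in sgKeap1-1 and at 0.308, 1.71 and 0 CPM in sgKeap1-2, from 1, 7 and 0 reads, where a count of 0 allows up to 3 reads. The sgKeap1-2 libraries all lay below sgCtrl, and sgKeap1-1 overlapped it. The log2 fold change was -2.88 ± 1.14 (adjusted p = 0.298) with sgKeap1-1 and -5.67 ± 1.55 (adjusted p = 0.0651) with sgKeap1-2, so without a block it passed with neither guide. All 6 log2 ratios of same-numbered libraries were negative, and with the replicate block it passed with sgKeap1-1 (-2.75, adjusted p = 3.51e-06). With sgKeap1-2, whose libraries did not all pair with sgCtrl by number, the block gave G6PC1 a value of -5.66 (adjusted p = 7.89e-09). DESeq2's Wald test called it with sgKeap1-2 (-5.79, adjusted p = 0.0013). In edgeR without the block, the value with sgKeap1-1 was -1.05 without sgCtrl replicate 2 and -3.86 without sgKeap1-1 replicate 2. With sgKeap1-2 it was -7.77 without sgKeap1-2 replicate 2 and -5.05 without sgKeap1-2 replicate 3, and it passed without sgCtrl replicate 2 (-3.83, adjusted p = 0.031) or sgCtrl replicate 3 (-6.16, adjusted p = 0.0421). The ACGTG in the printed promoter lies 88 bases before the start.

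PCK2, the mitochondrial carboxykinase, was at 181, 203 and 192 CPM in sgCtrl. It was at 146, 195 and 125 CPM in sgKeap1-1 and at 136, 135 and 165 CPM in sgKeap1-2. The sgKeap1-2 libraries lay below sgCtrl, at a log2 fold change of -0.40 ± 0.16 (adjusted p = 0.135), and the value with sgKeap1-1 was -0.31 ± 0.16 (adjusted p = 0.408). FBP1, fructose-1,6-bisphosphatase, had 12, 2 and 6 reads in sgCtrl, 3, 6 and 1 in sgKeap1-1 and 0, 1 and 7 in sgKeap1-2, too few for a comparison. PC, pyruvate carboxylase, and G6PC3, the ubiquitous glucose-6-phosphatase, ranged from 9.48 to 24 CPM and from 41.8 to 75.1 CPM and passed with neither guide. The summed level of the hepatocyte markers was also lower in every KEAP1-targeted library than in sgCtrl, at 0.68 times with sgKeap1-1 and 0.585 times with sgKeap1-2 in the group means, and its part in the PCK1 and G6PC1 values was not tested.

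In the glycogen branch, PGM1, the phosphoglucomutase that links glucose 6-phosphate to glycogen, was at 95.7, 104 and 93.1 CPM in sgCtrl. It was at 55.3, 79.5 and 64.7 CPM in sgKeap1-1 and at 44.9, 61.2 and 55.2 CPM in sgKeap1-2, so both KEAP1 groups lay below sgCtrl. PGM1 fell with sgKeap1-2 (log2 fold change -0.86 ± 0.16, adjusted p = 0.00295), and with sgKeap1-1 the value was -0.55 ± 0.16 (adjusted p = 0.0705, and 0.00559 with the replicate block). It passed with sgKeap1-1 without sgKeap1-1 replicate 2 (adjusted p = 0.0291) or sgKeap1-2 replicate 3 (0.0423), and the sgKeap1-2 call was lost without the 3 libraries numbered 1 (0.0864).

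PYGL, the liver glycogen phosphorylase, was at 67.3, 76.9 and 65.3 CPM in sgCtrl. It was at 55.8, 69.5 and 64.7 CPM in sgKeap1-1 and at 44, 50.7 and 45.8 CPM in sgKeap1-2. The sgKeap1-1 libraries overlapped sgCtrl and the sgKeap1-2 libraries lay below it. PYGL fell with sgKeap1-2 (log2 fold change -0.57 ± 0.14, adjusted p = 0.0179), a call lost without sgCtrl replicate 2 (adjusted p = 0.0728) or sgKeap1-2 replicate 1 (0.0755), and without all the libraries numbered 1 (0.209), 2 (0.0718) or 3 (0.0749). With sgKeap1-1 the value was -0.14 ± 0.14 (adjusted p = 0.751). The annotation has a gene on the other strand at the 3′ end of PYGL, as it has for ALDOC, TPI1, GAPDH, PCK2, G6PC3, PYGB and FBP1. The strand setting of the counts is not given in the sources used here, so reads of these 8 genes and their neighbours may be mixed, including in the isozyme shares that use PYGL, PYGB, PCK2 or ALDOC.

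The other 5 members of the branch passed with neither guide. UGP2, which makes UDP-glucose, was at 97.5, 115 and 101 CPM in sgCtrl, at 87, 104 and 123 CPM in sgKeap1-1 and at 82.2, 105 and 96.9 CPM in sgKeap1-2. PGM2 was at 14.8, 16.7 and 15.3 CPM in sgCtrl, at 8.53, 13.9 and 13.4 CPM in sgKeap1-1 and at 15.7, 13.9 and 12.4 CPM in sgKeap1-2. It lay below sgCtrl in all sgKeap1-1 libraries, at a log2 fold change of -0.38 ± 0.23 (adjusted p = 0.51), and overlapped it with sgKeap1-2. GYS1, the muscle-type glycogen synthase, had values of 0.42 ± 0.19 with sgKeap1-1 (adjusted p = 0.328) and 0.31 ± 0.19 with sgKeap1-2 (adjusted p = 0.373). The branching enzyme GBE1 and the brain-type phosphorylase PYGB ranged from 17.8 to 58.5 CPM and from 54.7 to 89.4 CPM, with overlapping groups.

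Levels were also summed over each branch, without a test. The hexokinase and isomerase branch summed to 313 ± 31.8 CPM (SD, n = 3) in sgCtrl, 427 ± 65.3 CPM in sgKeap1-1 and 439.9 ± 56.1 CPM in sgKeap1-2, and the KEAP1 libraries lay above sgCtrl. Gluconeogenesis summed to 340.1 ± 88.3, 238 ± 45.8 and 221 ± 32.4 CPM, and glycogen to 422 ± 39.6, 389.7 ± 36.8 and 359 ± 40.3 CPM. In both of these, the sgKeap1-2 libraries lay below sgCtrl and the sgKeap1-1 libraries overlapped it. Lower glycolysis summed to 5295 ± 939 CPM in sgCtrl, 6581 ± 781 CPM in sgKeap1-1 and 6855 ± 1237 CPM in sgKeap1-2, with overlapping libraries. The aldolase and triose branch summed to 1058 ± 204 CPM in sgCtrl, 1425 ± 165 CPM in sgKeap1-1 and 1482 ± 167 CPM in sgKeap1-2, where the sgKeap1-2 libraries lay above sgCtrl and the sgKeap1-1 libraries overlapped it. The phosphofructokinase branch summed to 135 ± 23.5, 148 ± 27.5 and 170.5 ± 29.2 CPM, with overlapping libraries, as had LDHA and PDK1, the 1 measured member of each of the other two branches.

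Isozyme use was read as the share of an enzyme's reads taken by each gene. These are shares of 3′ reads, not of protein, and carry no test. HK1 took 1.27% ± 0.476 (SD, n = 3) of HK1 and HK2 reads in sgCtrl, 5.59% ± 1.52 in sgKeap1-1 and 10.5% ± 3.13 in sgKeap1-2. PFKP took 1.98% ± 1.47 of PFKL and PFKP reads in sgCtrl, 15.9% ± 1.75 in sgKeap1-1 and 16.8% ± 2.19 in sgKeap1-2. In both pairs each KEAP1-targeted library had a higher share than each sgCtrl library.

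PCK1 took 10.8, 29.8 and 10.4% of PCK1 and PCK2 reads in sgCtrl, 1.81, 9.42 and 4.99% in sgKeap1-1 and 0.897, 2.13 and 0.437% in sgKeap1-2. PYGL took 50.9% ± 4.34 of PYGB and PYGL reads in sgCtrl, 49.9% ± 5.65 in sgKeap1-1 and 39.2% ± 4.58 in sgKeap1-2. PGM1 took 86.2% ± 0.351 of PGM1 and PGM2 reads in sgCtrl, 84.8% ± 1.91 in sgKeap1-1 and 79.1% ± 4.33 in sgKeap1-2. ALDOA and ENO1 kept over 95% of the reads of their pairs in every library.

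**Figure D3:**
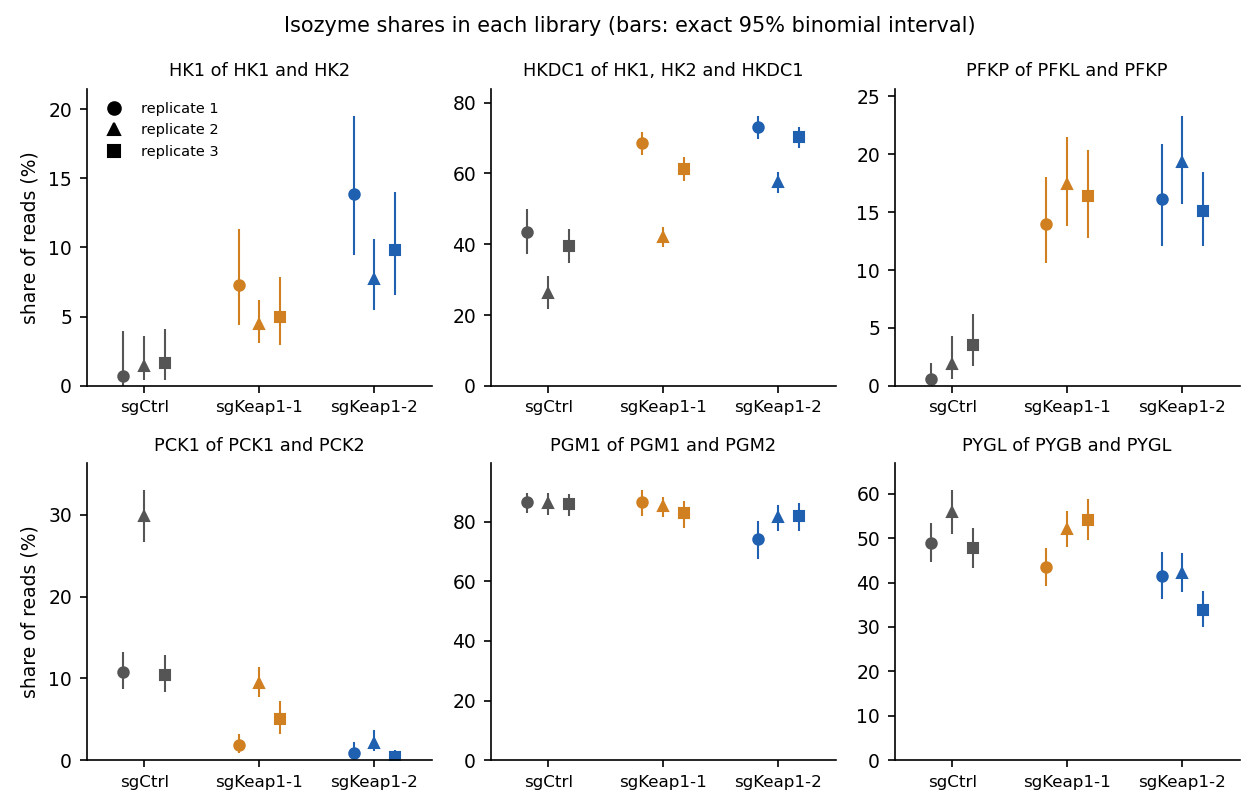
Share of reads (%) taken by the named isozyme in each library, with exact 95% binomial intervals that cover counting error only; symbols mark the replicate number. The shares of HK1 and PFKP are higher, and that of PCK1 lower, in all 6 KEAP1-targeted libraries than in any sgCtrl library.

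The guides were then compared with each other. Among all features 2 were called, both lower in sgKeap1-2 (0.0181%), and 562 had an unadjusted p under 0.05. None of the 31 members passed in edgeR's test without a replicate block, a count that the block changes for PCK1 and G6PC1, and 2 of them, PKM and PYGL, had an unadjusted p under 0.05. The sgKeap1-2 libraries lay wholly above sgKeap1-1 for PKM and wholly below for PYGL and PC, 1 and 2 of 31 members against 5.50% and 4.93% of all features. A missing call does not show that the guides act alike, since the 95% interval of the log2 difference was -5.16 to 0.0031 for PCK1 and -7.15 to 1.57 for G6PC1.

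Replicate number moved with many members. The libraries numbered 2 were the highest of their group for 24 of the 31 members in sgCtrl, 23 in sgKeap1-1 and 13 in sgKeap1-2, against 35.8%, 37.3% and 34.1% of all features. In sgKeap1-2, replicate 3 was the highest for more members, 15 of the 31, against 38.9% of all features. Of 17 genes known to rise in low oxygen and outside the pathway, the libraries numbered 2 were the highest for 16, 17 and 15. The summed level of these genes was 1073, 3077 and 1128 CPM in sgCtrl, 1141, 2573 and 1471 CPM in sgKeap1-1 and 1141, 1894 and 1375 CPM in sgKeap1-2. None of the 17 was called against sgCtrl with either guide in edgeR's test (3 and 0 with an unadjusted p under 0.05). Same-numbered libraries share a prefix in the labels whose meaning is not stated, and the part of this pattern in the members' values was not tested.

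Replicate 2 stood out for some members more than for others. In sgCtrl, replicate 2 stood above the other libraries for PCK1 (86.1 against 22 and 22.3 CPM), G6PC1 (92.6 against 12.7 and 7.81 CPM) and PFKFB3 (30.6 against 4.77 and 10.6 CPM). For PKM replicate 2 was also the highest, by less, with 750.3 against 726 and 678 CPM. Without the 3 libraries numbered 2, PKM was still called with both guides in edgeR. PFKP and HK1 were too, but they entered the test only through the KEAP1 libraries, so this adds no support for them. In the same fit PCK1 was called with sgKeap1-1 too (-2.27, adjusted p = 0.0016), and G6PC1 (-5.92, adjusted p = 0.000452) and PFKFB3 (2.06, adjusted p = 0.0265) with sgKeap1-2. G6PC1 was kept only through sgCtrl, so its call adds no support either. ALDOA was then called with sgKeap1-1 too (adjusted p = 0.0141) and ENO1 with sgKeap1-2 (0.0242), and the PYGL call with sgKeap1-2 was lost (0.0718).

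**Figure D4:**
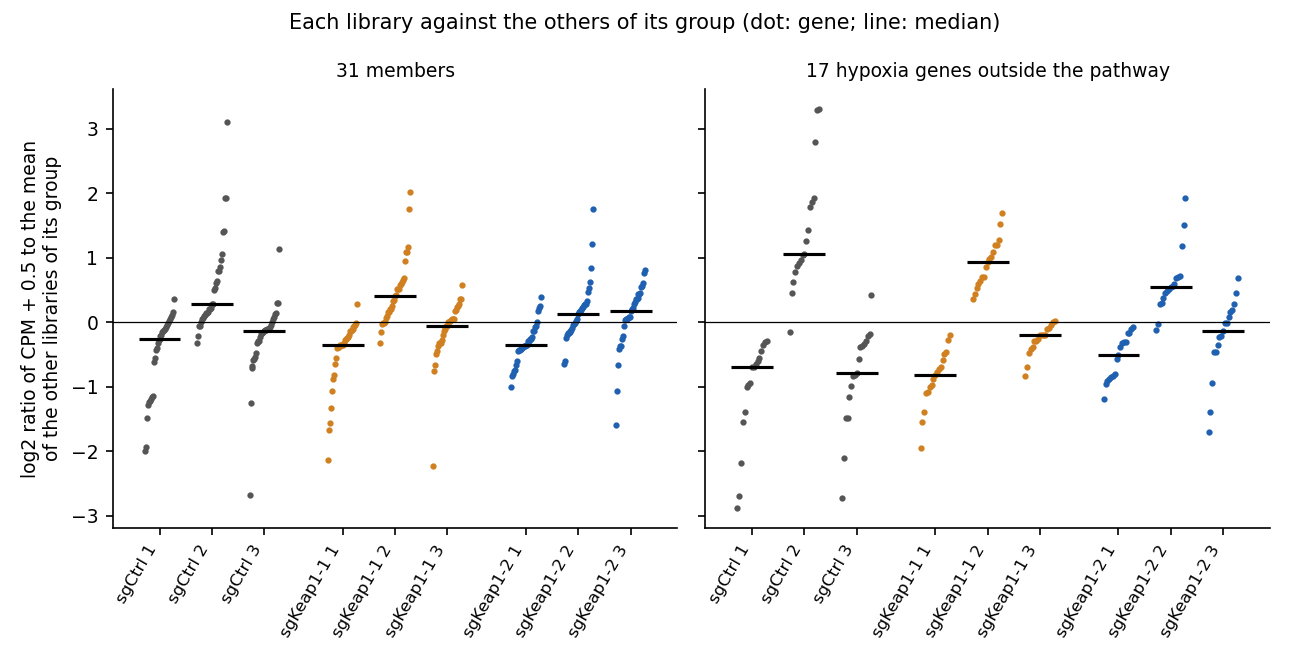
Log2 ratio of each library's CPM + 0.5 to the mean of the other libraries of its group, for the 31 members (left) and 17 hypoxia genes outside the pathway (right); dots are genes and lines medians. The medians of the libraries numbered 2 are at 0.28 and 0.40 for the members in sgCtrl and sgKeap1-1, and at 1.07 and 0.94 for the hypoxia genes; in sgKeap1-2 the members' medians are 0.13 for replicate 2 and 0.18 for replicate 3.

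Of 77 further genes of the pathway, its transport and its regulators, 60 were tested. With sgKeap1-1, 4 were higher and 3 lower, and with sgKeap1-2, 7 were higher and 6 lower, where the shares of all features were 2.80% and 1.40%, and 5.96% and 4.85%. Their log2 fold changes had medians of -0.047 and -0.064. HKDC1, a hexokinase-like enzyme, was at 27.8, 33.7 and 44.3 CPM in sgCtrl, at 131, 113 and 141 CPM in sgKeap1-1 and at 167, 149.5 and 157 CPM in sgKeap1-2. It rose by 1.86 ± 0.17 (adjusted p = 1.32e-05) and 2.16 ± 0.17 (adjusted p = 1.69e-06) on the log2 scale. Its share of HK1, HK2 and HKDC1 reads was 36.4% ± 9.02 in sgCtrl, 57.3% ± 13.7 in sgKeap1-1 and 66.9% ± 8.2 in sgKeap1-2, while HK1 took 0.822% ± 0.356, 2.28% ± 0.326 and 3.33% ± 0.416.

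SLC2A1, the glucose transporter GLUT1, rose by 1.20 ± 0.28 with sgKeap1-1 and 1.18 ± 0.28 with sgKeap1-2 on the log2 scale (adjusted p = 0.0407 and 0.023). GCKR, the inhibitor of glucokinase, rose by 1.77 ± 0.30 and 2.39 ± 0.29 (adjusted p = 0.00236 and 8.46e-05). MLXIP, one of the transcriptional regulators listed, rose by 0.49 ± 0.13 and 0.62 ± 0.13 (adjusted p = 0.0488 and 0.00622). Each of these 3 was higher in all 6 KEAP1-targeted libraries than in any sgCtrl library.

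Of the further genes, 3 fell with both guides. MLXIPL, the carbohydrate response factor ChREBP, fell with both guides (log2 fold change -0.63 ± 0.13 and -0.88 ± 0.13, adjusted p = 0.011 and 0.000482). CREB3L3, a liver transcription factor of the fasting response, fell (-1.02 ± 0.23 and -1.29 ± 0.24, adjusted p = 0.0198 and 0.00245). ENO3, the muscle enolase, also fell (-1.32 ± 0.25 and -1.45 ± 0.26, adjusted p = 0.0064 and 0.00183). With sgKeap1-2, the call for SLC2A1 was lost without sgCtrl replicate 1 or 3 or sgKeap1-2 replicate 1 or 2 (adjusted p 0.0608 to 0.0855). With sgKeap1-1, it was lost without sgCtrl replicate 1 or 3, sgKeap1-1 replicate 1 or 2 or sgKeap1-2 replicate 1 (0.0756 to 0.154), that for MLXIPL without sgCtrl replicate 1 or 3 or sgKeap1-1 replicate 1 (0.0512 to 0.0685), and that for CREB3L3 without sgCtrl replicate 1 or 3 or sgKeap1-1 replicate 1 or 3 (0.0573 to 0.135). The MLXIP call with sgKeap1-1 was lost without any single library except sgKeap1-2 replicate 3 (0.0649 to 0.226). It was also lost in 6 of the 9 other settings tried, with an adjusted p of up to 0.0612 in limma-voom.

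Leaving out all 3 libraries of a number ended more of these calls. Without those numbered 1, SLC2A1 (adjusted p = 0.429 with sgKeap1-1 and 0.229 with sgKeap1-2), MLXIP (0.698 and 0.129), MLXIPL (0.253 and 0.066) and CREB3L3 (0.503 and 0.101) passed with neither guide. GCKR was then lost with sgKeap1-1 (0.121) and ENO3 with sgKeap1-2 (0.0625). Without those numbered 3, ENO3 (0.0623), CREB3L3 (0.122) and MLXIP (0.14) were lost with sgKeap1-1, and MLXIP (0.0518) with sgKeap1-2. Without those numbered 2, MLXIP was lost with sgKeap1-1 (0.114). HKDC1 stayed past the threshold with both guides in every fit that left out libraries.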

How the data were processed

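RNA-seq of 9 HepG2 libraries (3 groups of 3) was made with the QuantSeq 3′ mRNA kit. The authors deposited raw counts per gene, not normalized. Per the submitters' processing notes the tools were FastQC 0.72, cutadapt 1.16, STAR 2.7.5b, featureCounts 1.6.3 and limma 3.40.6. The notes name hg38 and the study's methods name GRCh37, so the build of the counts is unsettled, and gene positions and promoters are context only. The members, lists and tests were chosen with earlier results of these data known.

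Rows without an Entrez number (1052 features, 1.34% of reads) stayed out of library sizes and tests. Counts were filtered with filterByExpr, scaled by TMM and fitted over all 9 libraries with edgeR 4.0.16 in R 4.3.3 (robust quasi-likelihood test, Benjamini-Hochberg adjustment over 11064 features, threshold 0.05). CPM are TMM-scaled. Log2 ratios of single libraries used CPM + 0.5. The scripts were tested on simulated data. Values in every library are given for members past the threshold with at least 1 guide and for the members with the highest and lowest mean of each branch. Other members are given by range, except PFKFB3, ENO1, TPI1, PGK1 and GYS1, which were picked once their values were known. Replicate numbers were taken to pair sgCtrl and sgKeap1-1, whose 3 same-number correlations were all over 0.1, and no other groups. The correlation of sgCtrl replicate 3 with sgKeap1-1 replicate 1 was over 0.1 too, at 0.29. Alternatives were a replicate block (fitted on all 9 libraries), other scalings and filters, limma-voom 3.58.1, DESeq2 1.42.0, fits of the groups compared alone, fits leaving out libraries and, added after seeing the data, a fit with the unnumbered rows. Library totals limit the precision of genes with few reads, and the intervals and floors cover counting error only.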

Additional observations from a re-analysis of the deposited data

How the results depend on the processing

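PKM with sgKeap1-2 kept its direction and stayed past the threshold under every alternative. PFKP with both guides and HK1 with sgKeap1-2 did so where tested. Both genes entered the test only through the KEAP1 libraries, so this adds no support for them. They were dropped by the 1 alternative that asks for reads in sgCtrl. With sgKeap1-1 against sgCtrl, the replicate block gave 977 features, 6 members higher and 3 lower. A minimum of 10 counts in every library gave 1 member higher, and the fit of the groups compared alone gave 1 lower. With sgKeap1-2 against sgCtrl, the block gave 1956 features, and the minimum of 10 counts gave 3 members higher. Between the guides, the block gave 26 features and 2 members lower (PCK1 and G6PC1), DESeq2 gave 19 features, and limma-voom, the minimum of 10 counts and the fit of the groups compared alone gave 0. For sgKeap1-2 the pairing is not given, since correlations of same-numbered libraries were not all over 0.1 there (-0.031 to 0.66 over all pairs). The block added PFKFB3 (1.46, adjusted p = 0.00185), ENO1 (adjusted p = 0.00386) and G6PC1 (-5.66, adjusted p = 7.89e-09) to the sgKeap1-2 calls. Between the guides it gave -2.55 for PCK1 (adjusted p = 0.00209) and -2.91 for G6PC1 (adjusted p = 0.0195), all in edgeR.

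Leaving out libraries gave 106 to 688 features with sgKeap1-1 (members 1 to 4 higher, 0 to 1 lower), 289 to 1291 with sgKeap1-2 (members 3 to 7 higher, 0 to 4 lower) and 0 to 2 between the guides. The members' median ran from 0.0013 to 0.42 with sgKeap1-1 and from 0.0067 to 0.36 with sgKeap1-2. The sign was followed for the called members and for ENO1, PFKFB3, G6PC1, TPI1, PGK1, GAPDH, LDHA, PCK2, GYS1 and PGM2, and not for the other members. Among those followed, the log2 fold change of GAPDH changed sign with sgKeap1-2 (-0.17 to 0.41, -0.068 without sgKeap1-2 replicate 3 and -0.17 without the libraries numbered 3). That of LDHA changed sign with sgKeap1-1 (-0.058, without sgKeap1-1 replicate 2, to 0.25). It also did so with sgKeap1-2 (-0.14 to 0.041, which was without sgCtrl replicate 2, and 0.0072 without sgKeap1-2 replicate 3). The cause was not tested. GPI with sgKeap1-2 was lost without the libraries numbered 1 or 3 (adjusted p = 0.112 and 0.128 in edgeR). HK1, PFKP, PCK1 and G6PC1 rest on under 20 reads in some libraries, where depth limits the size of a fold.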

Other observations

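Among the 60 further pathway genes tested, 6 passed with sgKeap1-2 and not with sgKeap1-1, and the difference between the guides passed for none of them in edgeR's test. Both subunits of the mitochondrial pyruvate carrier fell with sgKeap1-2. MPC1 was at 97.8, 148 and 97.0 CPM in sgCtrl and at 67.7, 72.4 and 63.0 CPM in sgKeap1-2 (log2 fold change -0.75, adjusted p = 0.0357), and MPC2 at 88.8, 91.9 and 92.3 CPM against 66.2, 61.9 and 57.4 CPM (-0.56, adjusted p = 0.00812). HNF4A, a hepatocyte transcription factor that is also among the hepatocyte markers, fell (-0.57, adjusted p = 0.0126). GAA, the lysosomal enzyme that degrades glycogen, rose (0.74, adjusted p = 0.00317), as did PGM2L1 (0.99, adjusted p = 0.0262) and HIF1A (0.57, adjusted p = 0.032), which encodes an oxygen-sensing transcription factor. With sgKeap1-1 their adjusted p ran from 0.0542 for GAA to 0.794 for MPC2. These 6 were chosen after their values were seen, and their values under the alternatives are not given.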
